A study of Mus musculus with 16 samples.

Results

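Ovalbumin, an egg protein used as an experimental allergen, was compared with phosphate-buffered saline in whole lungs of the inbred mouse line BALB/c. The 8 arrays titled BALB/c were chosen by title from 16 in the series: 4 after ovalbumin (OVA) and 4 after saline (PBS), each group numbered as replicates 1 to 4. BALB/c mice carry no engineered allele in the titles, and the remaining 8 arrays, of a line titled BALB-RAG, were not part of the comparison. Lungs of both groups were collected on day 22, the day after exposure ended, and 6 µg of total RNA per sample was labelled for an Affymetrix mouse array. Route, dose, adjuvant, age, sex and hour of collection are not given in the sources used here. Nothing in the labels says that replicates were separate animals, so each p-value reflects variation among these samples only, and that variation may be technical.

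Allergic airway inflammation is driven by type 2 immunity. Epithelial alarmins such as IL-33 activate innate lymphoid cells and T helper 2 cells, whose cytokines IL-4, IL-5 and IL-13 act on several targets. IL-13 turns airway secretory cells into mucus-filled goblet cells, IL-5 sustains eosinophils, and IL-4 with IL-13 drives macrophages into the state called alternative activation. Whole lung RNA mixes epithelium, vessels, stroma, resident macrophages and recruited leukocytes. In such bulk samples fewer cells of a type and less RNA per cell cannot be told apart.

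The arrays held the markers of lung. Sftpc, the surfactant protein made by alveolar type 2 cells, read log2 14.39 to 14.55 after PBS and 14.34 to 14.43 after OVA, near the top of the scale on all 8 arrays. All values are log2 of the deposited intensity, and log2 4 was taken as background. Median intensity per array was 18.2 to 19.7 before the log, and 52.3 to 53.1% of probe sets exceeded background. The labelled liver markers and the keratins Krt4 and Krt13 of squamous epithelium were under background on all 8 arrays. PBS replicate 1 stood apart by skeletal muscle RNA: Acta1, skeletal actin, read 11.38, 5.05, 4.31 and 4.52 on PBS replicates 1 to 4 and 4.42, 4.90, 3.89 and 4.79 on OVA replicates 1 to 4. Slc4a1, the red cell anion exchanger and the 1 labelled of 3 red cell markers, read 7.50, 8.88, 4.80 and 5.83 after PBS and 4.63, 4.84, 3.96 and 4.74 after OVA, highest on PBS replicates 1 and 2. Replicates 1 and 2 of both groups also differed from replicates 3 and 4 across many genes, and the fit carried a term for this split.

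OVA and PBS lungs differed across much of the transcriptome. Gene names rest on a realignment of the table's labels to its values (see the processing notes), which named 9866 genes, of which 7047 passed the background filter and were tested. Of those, 1958 (27.8%) passed an adjusted p of 0.05 (limma, Benjamini-Hochberg): 1045 (14.8%) were higher after OVA and 913 (13%) lower. "Rose" and "fell" below mean past that threshold, and changes are OVA minus PBS in log2 units ± SE (n = 4 per group). Where a list has 0 members in a direction (limma), 1 or more passed an unadjusted p of 0.05 that way in 7 of the lists below: 3 chemokine receptors, and 1 each of the B cell, complement, mitosis and endoplasmic reticulum genes, were lower, and 1 adipose and 1 sterol gene were higher. The rises were larger than the falls: past a 2-fold change lay 406 rises and 152 falls, and past log2 3 lay 30 rises and 1 fall, Pon1. All 4 OVA arrays stood above all 4 PBS arrays for 742 genes (10.5%) and below them for 651 (9.24%). For 2960 genes the 95% interval of the change lay within 0.5 log2 units either side of 0. With the replicate number as a block 1559 of the 1958 genes kept their call. Without the term for the replicate split 910 genes were called, 533 higher and 377 lower. Without PBS replicate 1 the count of falls was 599.

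**Figure D1:**
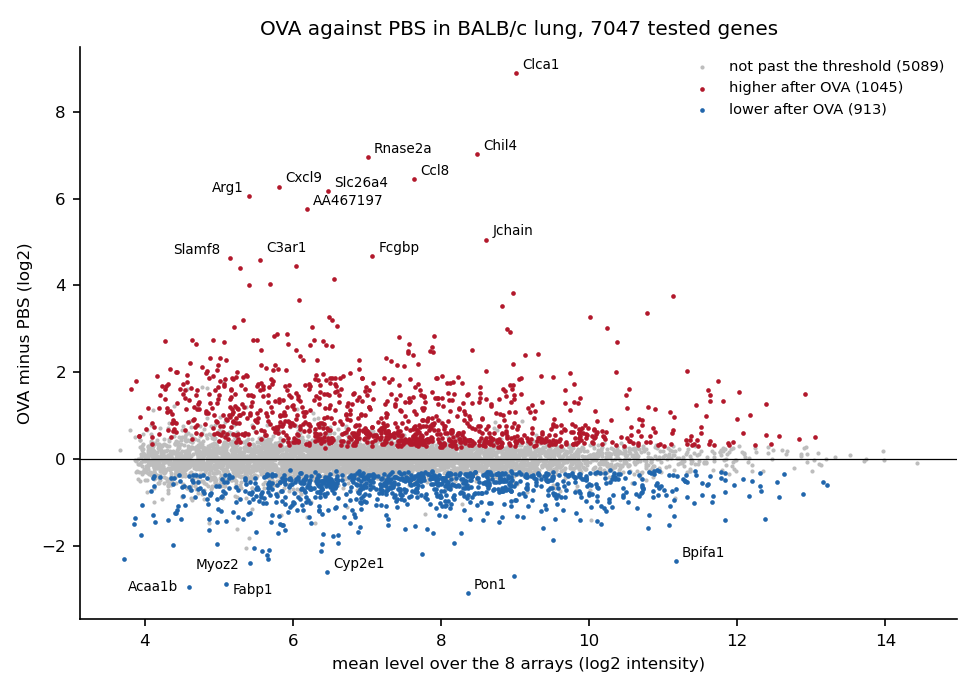
Change after OVA (OVA minus PBS, log2) against mean level (log2 intensity) for the 7047 tested genes, with genes past an adjusted p of 0.05 coloured by direction. The 30 rises past log2 3 outnumber the 1 fall of that size, and the median gene sits near 0.

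By level, 5 genes went from under log2 4 on all PBS arrays to over log2 6 on all OVA arrays, while 0 made the opposite change. Rnase2a, an eosinophil-associated ribonuclease, read 3.14, 3.55, 3.80 and 3.64 after PBS (replicates 1 to 4, as in all such lists below) and 10.77, 11.59, 9.98 and 9.59 after OVA. With PBS set to background the rise was at least 89.4-fold (adjusted p = 2.16e-05, limma). The interferon-inducible chemokine Cxcl9 went from 2.62, 2.84, 2.61 and 2.59 after PBS to 9.84, 9.11, 8.40 and 8.41 after OVA, a rise of at least 30.8-fold. Arg1, the arginase that splits arginine to ornithine, read 2.23 to 2.56 after PBS and spread more widely after OVA, with 9.14, 9.83, 7.96 and 6.83 on the 4 arrays. Its rise was at least 21.7-fold. C3ar1, the receptor for the complement fragment C3a, rose at least 14.4-fold, and Ly6i, a surface protein of the Ly6 family, at least 10.6-fold. That the groups did not overlap for these 5 genes follows from how they were picked.

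**Figure D2:**
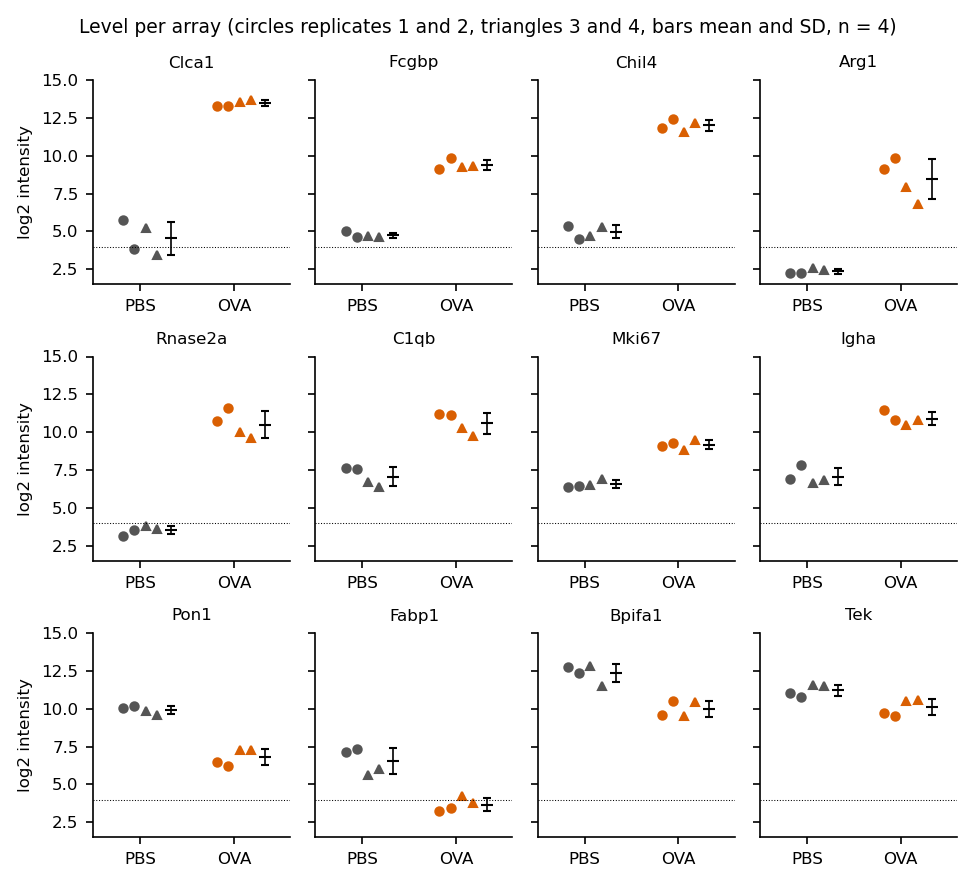
Log2 intensity on each of the 8 arrays for genes at both ends of the response, with circles for replicates 1 and 2, triangles for 3 and 4, bars for the group mean and SD (n = 4) and a dotted line at log2 4. OVA arrays lie wholly above PBS arrays for the rises and wholly below for the falls. The largest rises and falls were picked among genes with that separation.

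Goblet cells secrete gel-forming mucins together with the proteins that cross-link and hydrate them. Of 19 tested members of the goblet cell and mucus list (37 listed), 10 rose and 1 fell, with a median change of 0.76 against 0.0023 for all tested genes. For comparison, 14.8% of tested genes rose and 13% fell. Clca1, a secreted protease of mucus, stood at 5.74, 3.87, 5.19 and 3.44 in PBS lungs and at 13.29, 13.30, 13.52 and 13.70 in OVA lungs. All 4 OVA values were close together near the top of the scale, while 2 of the PBS values were under background. Slc26a4, the anion exchanger pendrin, read 4.52, 3.40, 2.67 and 2.95 after PBS and 9.42, 9.93, 9.36 and 9.54 after OVA, again with tight OVA values.

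The structural mucus genes followed. Fcgbp, an IgG Fc-binding mucus protein, went from 5.0, 4.63, 4.70 and 4.61 after PBS to 9.15, 9.88, 9.25 and 9.34 after OVA (4.67 ± 0.16), among the smallest p of all genes (adjusted p = 3.44e-06, limma). Muc5b, a gel-forming mucin already present in the normal airway, read 7.53, 6.76, 7.37 and 7.01 after PBS and 9.06 to 10.30 over the OVA arrays. Tff2, a trefoil peptide of mucous epithelia, stood at 6.47, 5.78, 4.61 and 3.99 in PBS lungs and at 7.95, 8.47, 7.30 and 7.58 in OVA lungs. Groups did not overlap for either gene. The sialyltransferase St6gal1 did not pass (0.34 ± 0.13, adjusted p = 0.0844, limma). The lone fall, the surface protease Tmprss2 (−0.34 ± 0.09), had an adjusted p of 0.0744 (limma) with the replicate number as a block. Its call was also lost without PBS 1, PBS 2, PBS 3, OVA 1, OVA 2 or OVA 3 (adjusted p = 0.0580 to 0.0900).

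Genes of epithelial transport moved both ways. Among 24 tested solute carriers and ion channels of epithelium 6 rose and 6 fell (median −0.03). Of all tested genes 14.8% rose and 13% fell. Without PBS 1, OVA 1 or OVA 2 there were 3 falls, near the share of all tested genes. Slc6a20a, an amino acid transporter, read 4.48, 4.13, 3.45 and 5.25 after PBS and 7.28, 7.01, 7.28 and 7.09 after OVA, and the OVA values were close together. Slc5a1, a sodium-glucose transporter, rose by 1.91 ± 0.21 and Slc7a2, which imports arginine, by 1.94 ± 0.29. Slc34a2, the phosphate carrier of alveolar type 2 cells, read 12.43 to 12.53 after PBS and 12.30 to 12.71 after OVA.

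Alternatively activated macrophages make chitinase-like proteins, arginase, lectins and a set of chemokines. Of 16 tested members of that list (26 listed) 14 rose and 0 fell, with a median of 1.65. Chil4, a chitinase-like protein also made by airway epithelium, went from 5.37, 4.51, 4.68 and 5.29 after PBS to 11.83, 12.41, 11.56 and 12.19 after OVA. Clec7a, the beta-glucan receptor dectin-1, stood at 9.32, 9.20, 8.33 and 8.07 in PBS lungs and at 12.05, 12.04, 11.62 and 11.30 in OVA lungs (3.02 ± 0.14). It started well above background, and the groups did not come near each other. Ms4a7, a membrane protein of macrophages, read 5.01, 5.01, 4.57 and 3.33 after PBS and 9.46, 9.54, 8.45 and 7.08 after OVA. Tgm2, a transglutaminase, and the lectin Cd209a did not pass, with changes of 0.06 ± 0.11 and −0.33 ± 0.48.

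Arginine handling beyond Arg1 was mixed. Of 13 tested arginine, polyamine and tryptophan genes 4 rose and 2 fell. Arg2, the mitochondrial arginase, went from 6.67, 6.80, 5.19 and 4.24 after PBS to 7.54, 7.67, 6.57 and 6.13 after OVA, groups that overlapped but differed within each pair of replicates. Sat1, which acetylates polyamines, read 10.18 to 10.23 after PBS and 10.80 to 11.11 after OVA (0.73 ± 0.09). The falls were Ddah2 (−0.47 ± 0.10), of the dimethylarginine hydrolase family, and the endothelial synthase Nos3 (−0.42 ± 0.12). Nos3 missed the threshold with the replicate number as a block (adjusted p = 0.0518, limma) and without PBS 2, PBS 3, PBS 4, OVA 1, OVA 2, OVA 3 or OVA 4 (adjusted p = 0.0545 to 0.103). Gatm, the first enzyme of creatine synthesis, which also uses arginine, had the smallest p of all genes. It stood at 3.70, 3.62, 3.90 and 4.06 in PBS lungs and at 8.42, 8.36, 8.31 and 7.95 in OVA lungs (adjusted p = 3.44e-06, limma).

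Macrophage and monocyte markers rose broadly: 21 of 28 tested members rose and 0 fell, with a median of 1.35. C1qb, a chain of complement C1q made by tissue macrophages, read 7.66, 7.55, 6.70 and 6.35 after PBS and 11.18, 11.16, 10.26 and 9.77 after OVA (3.53 ± 0.13). Itgax, the integrin CD11c of alveolar macrophages and dendritic cells, went from 7.83, 7.53, 7.42 and 7.13 after PBS to 10.92, 10.93, 10.23 and 9.48 after OVA. Groups were apart for both. Lyz2, lysozyme of macrophages and alveolar type 2 cells, did not pass (−0.03 ± 0.10), nor did the lipase Lpl (0.04 ± 0.14). AA467197, the gene whose product is also called Nmes1, stood at 3.47, 4.31, 2.84 and 2.63 in PBS lungs and at 9.81, 9.84, 8.53 and 8.06 in OVA lungs.

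Genes for receptors that bind foreign material and for lysosomal digestion rose as well. Which cells these rises came from was not tested. In the list of Fc, lectin and pattern receptors 17 of 24 rose and 0 fell (median 1.48). That list shares members with the macrophage list, Fcgr2b among them. Fcgr2b, the inhibitory IgG receptor, rose by 2.40 ± 0.17, Clec4a2, an inhibitory lectin, by 3.05 ± 0.18, Ly86, a partner of a toll-like receptor relative, by 2.18 ± 0.13 and Tlr7, the sensor of single-stranded RNA, by 1.68 ± 0.14. Tlr2, which senses bacterial lipopeptides, did not pass (0.55 ± 0.24). Of 32 tested cathepsin, proton pump and lysosome genes 25 rose and 0 fell (median 0.63). Ctsz, a cathepsin, read 11.72, 11.73, 10.81 and 10.71 after PBS and 13.36, 13.11, 12.66 and 12.06 after OVA. Ctsb rose by 1.46 ± 0.15, Ctsc by 0.92 ± 0.09 and Gla, the lysosomal alpha-galactosidase, by 2.15 ± 0.24. Lamp1, a membrane protein of every lysosome, missed the threshold although its groups were apart (11.47 to 11.63 after PBS, 11.67 to 11.79 after OVA, 0.18 ± 0.08).

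Complement and acute phase genes rose in 15 of 20 tested members and fell in 0 (median 1.22). C1qa rose by 2.99 ± 0.16, the receptor C3ar1 is given above, and coagulation factor F7 went from 6.81, 6.75, 5.80 and 6.01 after PBS to 9.17, 9.61, 8.58 and 7.76 after OVA. Lcn2, an iron-trapping lipocalin made by stressed epithelium and by neutrophils, stood at 9.65, 10.21, 8.43 and 8.09 in PBS lungs and at 12.62, 12.77, 12.17 and 12.30 in OVA lungs, with no overlap. Serping1, the inhibitor of C1, did not pass (0.02 ± 0.10), nor did Hc, complement C5 (0.26 ± 0.10). The 1 riser among 7 tested neutrophil markers was Lcn2. S100a8, an abundant neutrophil protein, read 11.71, 12.35, 8.88 and 8.51 after PBS and 9.08, 9.33, 10.66 and 9.55 after OVA, so PBS replicates 1 and 2 were the highest of the 8 arrays.

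Chemokines, the attractants that place leukocytes in tissue, rose in 13 of 19 tested members and fell in 2 (median 1.58). Ccl8, a ligand of Ccr8 on type 2 T cells in the mouse, went from 4.65, 4.33, 4.11 and 4.57 after PBS to 11.33, 11.63, 10.33 and 10.15 after OVA (6.44 ± 0.24). Ccl9 stood at 8.86, 9.79, 7.47 and 7.37 in PBS lungs and at 12.35, 12.48, 11.23 and 10.49 in OVA lungs, with the group difference (3.26 ± 0.23) above the spread between the PBS arrays. Cxcl10, which shares its receptor with Cxcl9, read 5.02, 5.19, 5.03 and 4.96 after PBS and 8.62, 7.84, 7.35 and 7.29 after OVA. Cxcl16, a membrane-bound chemokine, rose by 1.74 ± 0.16. The falls were Ccl27a (−0.70 ± 0.21) and Cxcl14 (−0.64 ± 0.19). Ccl27a lost its call without PBS 1, PBS 2, PBS 3, PBS 4, OVA 1 or OVA 4 (adjusted p = 0.0509 to 0.112). Cxcl14 lost it without PBS 1, PBS 2, OVA 1, OVA 2 or OVA 3 (adjusted p = 0.0669 to 0.103) and with the replicate block (adjusted p = 0.0745, limma). Cxcl12, which retains stem cells and lymphocytes, and the lung-specific Cxcl15 did not pass (−0.07 ± 0.10 and 0.04 ± 0.10).

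Of 9 tested chemokine receptors 4 rose. Cxcr6, the receptor for Cxcl16 on activated T cells, went from 4.41, 4.46, 3.75 and 4.0 after PBS to 7.75, 7.04, 6.07 and 6.68 after OVA (2.73 ± 0.20), with the groups apart. Ccr1 rose by 2.27 ± 0.35, with overlapping groups. Ccr2, the monocyte receptor (1.52 ± 0.41), and Cxcr5, the follicle receptor (0.87 ± 0.24), rose too. Ccr2 lost its call without PBS 1, PBS 3, PBS 4, OVA 3 or OVA 4 (adjusted p = 0.0641 to 0.0757). Cxcr5 lost it without PBS 1, PBS 2, PBS 4, OVA 1, OVA 2 or OVA 4 (adjusted p = 0.0649 to 0.0834) and with the replicate block (adjusted p = 0.0611, limma). The count of risers was 2 without PBS 1, PBS 4 or OVA 4. With arrays shifted to one median 3 chemokine receptors fell.

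Dendritic cells take antigen to T cells and show it on MHC class II. Of 14 tested dendritic cell markers 11 rose and 0 fell (median 1.53). Irf4, a transcription factor of type 2 dendritic cells and of plasma cells, stood at 3.85, 4.02, 3.95 and 3.98 in PBS lungs and at 6.48, 6.47, 6.03 and 5.98 in OVA lungs. Fscn1, an actin bundler of mature dendritic cells, rose by 2.03 ± 0.16, Irf8 by 1.46 ± 0.12 and Cd83, a maturation marker, by 2.16 ± 0.26. Cst3, which inhibits cathepsins, did not pass (0.16 ± 0.08).

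All 11 tested members of the MHC class II list (16 listed) rose, in the comparison over 8 arrays, with the replicate block and within each pair of replicates (median 1.88). Within replicates 1 and 2, 9.22% of all tested genes rose and 8.95% fell, and within replicates 3 and 4, 9.39% rose and 6.05% fell (limma). H2-Eb1, a class II beta chain, read 10.84, 10.39, 9.92 and 10.07 after PBS and 12.76, 12.45, 12.13 and 11.95 after OVA. H2-Aa, a class II alpha chain, went from 11.38, 11.28, 11.07 and 10.84 after PBS to 12.61, 12.54, 12.43 and 12.35 after OVA. Cd74, the invariant chain that guards the peptide groove, rose by 1.26 ± 0.09, the costimulator Cd86 by 2.05 ± 0.14 and Ifi30, a thiol reductase that opens antigens for loading, by 2.01 ± 0.09. Class II promoters are known to carry a Y box with the letters CCAAT beside the sites bound by the RFX complex. The 250 bases before the start of H2-Eb1 and H2-Aa are shown because both genes moved with their list. They are from RefSeq, build GRCm38.p6, on the gene's own strand, with CCAAT or its reverse complement in capitals.
H2-Eb1, chr17:34305617-34305866, plus strand: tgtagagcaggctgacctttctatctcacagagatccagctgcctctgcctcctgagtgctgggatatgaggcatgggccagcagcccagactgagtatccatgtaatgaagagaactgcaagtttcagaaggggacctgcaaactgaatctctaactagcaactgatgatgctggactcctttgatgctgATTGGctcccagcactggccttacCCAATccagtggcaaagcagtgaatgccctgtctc
H2-Aa, chr17:34287824-34288073, minus strand: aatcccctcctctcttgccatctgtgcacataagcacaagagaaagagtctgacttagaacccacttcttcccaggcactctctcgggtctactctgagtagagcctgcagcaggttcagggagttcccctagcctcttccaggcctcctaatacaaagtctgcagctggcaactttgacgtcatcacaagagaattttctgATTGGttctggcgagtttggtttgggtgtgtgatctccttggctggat
CCAAT on either strand was in 5 of the 7 windows found for 6 of the 11 risers, and in 33.8% of all 32851 windows of that length. A match is a description of letters and not of binding.

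Interferon response genes were raised as well: 18 of 30 tested members rose and 0 fell (median 1.01). Iigp1, an immunity-related GTPase, stood at 8.01, 7.61, 8.64 and 8.13 in PBS lungs and at 10.48, 10.23, 10.85 and 10.52 in OVA lungs. Gbp2, a guanylate-binding protein, read 9.15, 8.78, 8.93 and 8.88 after PBS and 11.11, 10.62, 10.78 and 10.09 after OVA (1.72 ± 0.19). Both were well above background in the PBS lungs, and the groups were apart. Gbp7 (0.64 ± 0.22, adjusted p = 0.0651, limma) and Trim25 (0.24 ± 0.12) did not pass.

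Interferon-stimulated genes are known to carry elements built from repeats of GAAA, of which TTTC, any 2 bases and TTTC, read on either strand, is a core form. The motif was in 8 of the 18 windows found for 15 of the 18 risers, and in 3.0% of all 32851 windows. Cxcl10 and Gbp2 are shown because they rose and hold it (RefSeq, build GRCm38.p6, 250 bases before the start on the gene's strand, match in capitals).
Cxcl10, chr5:92348890-92349139, minus strand: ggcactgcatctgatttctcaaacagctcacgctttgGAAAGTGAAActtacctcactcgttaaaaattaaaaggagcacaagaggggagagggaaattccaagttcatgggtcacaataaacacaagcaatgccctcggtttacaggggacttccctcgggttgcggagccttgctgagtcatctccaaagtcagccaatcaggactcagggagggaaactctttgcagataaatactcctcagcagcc
Gbp2, chr3:142620413-142620662, plus strand: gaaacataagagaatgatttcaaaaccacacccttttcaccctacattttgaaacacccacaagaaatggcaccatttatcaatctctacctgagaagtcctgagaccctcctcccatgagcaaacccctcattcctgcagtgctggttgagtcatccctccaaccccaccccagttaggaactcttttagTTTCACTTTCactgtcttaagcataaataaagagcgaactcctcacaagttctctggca
For comparison, TTC and GAA set 4 bases apart, a form of the STAT motif searched for the list of alternative macrophage activation, was in 4 of 12 windows of its risers. It was in 0 of 7 windows of the goblet cell risers and in 5.9% of all windows. A window without a match says only that these letters are not in it.

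The class I pathway and the interferon-inducible proteasome rose with them, in 8 of 11 tested members (median 0.66), and 0 fell. Tap1, the peptide transporter, went from 6.80, 6.15, 6.60 and 6.14 after PBS to 8.70, 8.33, 8.83 and 8.45 after OVA. Psmb8, an immunoproteasome subunit, stood at 8.75, 8.33, 7.57 and 7.66 in PBS lungs and at 10.13, 9.91, 9.24 and 9.28 in OVA lungs. H2-K1, a classical class I heavy chain, rose by 1.01 ± 0.12. The constitutive proteasome, set beside it, had 4 of 16 members higher and a median of 0.19. These were Psmd8 (0.59 ± 0.10), Psma5 (0.54 ± 0.11), Psmd14 (0.41 ± 0.10) and Psmd13 (0.38 ± 0.09), and Psmd14 and Psmd13 lost their calls without OVA 1 (adjusted p = 0.0510 and 0.0543).

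Of 15 tested T cell markers 12 rose and 0 fell (median 1.19). Cd3d, a chain of the T cell receptor complex, read 6.13, 6.15, 4.98 and 5.65 after PBS and 8.45, 7.78, 6.88 and 7.42 after OVA. Cd28, the costimulatory receptor, rose by 1.64 ± 0.18 and Cd3g by 2.51 ± 0.32. Ctla4, a checkpoint of activated and regulatory T cells, was under background on all PBS arrays and read 5.57, 4.54, 4.55 and 5.83 after OVA, at least 2.18-fold higher. Cd4 (0.27 ± 0.21) and Cd8b1 (1.63 ± 0.67, 3.16 to 7.22 after OVA) did not pass.

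B cell markers rose in 11 of 16 tested members and fell in 0 (median 1.26). Pou2af1, a coactivator of immunoglobulin genes, went from 7.50, 7.54, 7.08 and 6.84 after PBS to 9.59, 9.19, 8.64 and 8.54 after OVA. Btk, the kinase of the B cell receptor, rose by 1.72 ± 0.17, Cd72 by 1.95 ± 0.24 and Ms4a1, which is CD20, by 1.18 ± 0.20. Cd79a, a signalling chain of that receptor, stood at 6.38, 6.34, 5.77 and 6.02 in PBS lungs and at 7.38, 7.55, 5.54 and 7.01 in OVA lungs, and its lowest OVA value was on replicate 3. The mean level of the B cell list was also lowest there among OVA arrays. The count of risers was 7 without PBS 1, OVA 1 or OVA 2, and 13 without OVA 3.

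Plasma cells secrete antibody. Of 10 tested plasma cell and immunoglobulin genes 6 rose and 0 fell (median 1.75). Igha, the IgA heavy chain, read 6.92, 7.86, 6.66 and 6.83 after PBS and 11.47, 10.83, 10.45 and 10.78 after OVA, with a clear gap between the groups. Jchain, which links IgA and IgM into polymers, went from 7.37, 7.70, 4.34 and 4.93 after PBS to 12.37, 11.99, 11.80 and 8.40 after OVA, so OVA replicate 4 stood far under the other OVA arrays yet above every PBS array. Edem1, which clears misfolded proteins from the endoplasmic reticulum, rose by 1.75 ± 0.15. Xbp1 (0.03 ± 0.10) and Sdc1, the syndecan CD138 also made by epithelium (0.13 ± 0.09), did not pass. Of the 6 tested lymph node and follicle genes 4 rose: Ltb (1.54 ± 0.10), Cxcl13 (1.32 ± 0.18), Fcer2a (1.89 ± 0.36) and Cr2 (1.22 ± 0.36). Cr2 lost its call with the replicate block (adjusted p = 0.0856, limma) and without PBS 1, PBS 4, OVA 1, OVA 2 or OVA 4 (adjusted p = 0.0569 to 0.0894).

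Little of type 2 cytokine signalling could be tested. Of 19 listed cytokines and receptors 8 had no realigned label, Il4, Il5 and Tslp among them, and 5 were under the filter, Il13 and Il25 among them. Of the 6 tested, where Il33 was the lone cytokine, 3 rose. Il33, the epithelial alarmin, stood at 9.44, 9.33, 9.0 and 9.05 in PBS lungs and at 10.57, 10.70, 10.26 and 10.47 in OVA lungs, a narrow shift with no overlap (1.30 ± 0.09, adjusted p = 8.77e-05, limma). Crlf2, the receptor for the alarmin TSLP, rose by 0.99 ± 0.10. Il5ra, the IL-5 receptor of eosinophils and B cells, rose from under background on all PBS arrays by at least 1.27-fold, and lost its call without PBS 1, PBS 3, PBS 4, OVA 1 or OVA 2 (adjusted p = 0.0519 to 0.0712). Stat6, which carries the IL-4 and IL-13 signal, and the receptor chain Il13ra1 did not pass (0.09 ± 0.09 and 0.21 ± 0.13).

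Among 26 other interleukin and TNF family genes 14 rose and 1 fell (median 0.58), the fall being Il18, an alveolar as well as macrophage cytokine (−1.47 ± 0.22). Il1rn, the natural blocker of IL-1, read 5.61, 5.45, 4.34 and 4.15 after PBS and 8.10, 7.98, 5.96 and 5.68 after OVA. Csf2rb, the shared chain of the IL-3, IL-5 and GM-CSF receptors, rose by 1.56 ± 0.15. Tnfrsf13b, a B cell receptor for survival factors, rose by 1.42 ± 0.12 and Tnfrsf1b, a TNF receptor, by 1.22 ± 0.12.

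Lipid mediators were read from 11 tested eicosanoid genes, of which 4 rose and 2 fell. Cyp4f18, which breaks down leukotriene B4, went from 6.90, 7.12, 6.22 and 6.21 after PBS to 10.10, 9.90, 8.54 and 7.83 after OVA. Tbxas1, thromboxane synthase, rose by 1.74 ± 0.19 and Ptgir, the prostacyclin receptor, by 2.15 ± 0.31. Ptger4, a prostaglandin E2 receptor, rose by 1.48 ± 0.14 on its brighter probe set, and another probe set missed the threshold. Alox12, the platelet-type lipoxygenase, fell to under background on all OVA arrays from 4.44 to 5.66, at least 2.03-fold. Ptgs2, inducible cyclooxygenase, changed by −0.88 ± 0.27 and lost its call with the replicate block (adjusted p = 0.0617, limma) and without PBS 1, PBS 3, PBS 4, OVA 1, OVA 2, OVA 3 or OVA 4 (adjusted p = 0.0582 to 0.115).

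Cell division genes rose together. Of 34 tested mitosis genes 29 rose and 0 fell (median 1.74). Every OVA array was above every PBS array for 28 of the 34, against 742 (10.5%) of all tested genes. Spc25, a kinetochore subunit, stood at 4.25, 4.16, 3.46 and 3.06 in PBS lungs and at 6.51, 6.73, 6.20 and 6.22 in OVA lungs. Mki67, the antigen Ki-67 of cycling cells, read 6.41, 6.45, 6.55 and 6.93 after PBS and 9.07, 9.27, 8.84 and 9.52 after OVA (2.59 ± 0.17). Ccna2, a cyclin of S and G2 phase, rose by 2.65 ± 0.15, Ect2, needed for cytokinesis, by 2.28 ± 0.16 and Cks1b, a partner of cyclin-dependent kinases, by 1.70 ± 0.12. Bub3 of the spindle checkpoint and Stmn1 did not pass (0.19 ± 0.09 and 0.31 ± 0.14).

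Of 27 tested DNA replication genes 20 rose and 0 fell (median 0.81). Rrm2, which makes deoxynucleotides, went from 6.49, 6.32, 5.74 and 5.58 after PBS to 9.23, 9.12, 7.94 and 9.08 after OVA. Cdt1, a licensing factor, rose by 1.47 ± 0.12 and Brca1, of DNA repair, by 2.03 ± 0.22. The G1 cyclins and inhibitors were mixed, with 6 of 22 higher and 2 lower. Ccne1, cyclin E, rose by 0.90 ± 0.10, while Cdkn1c, the inhibitor p57, stood at 6.91, 6.79, 7.16 and 6.93 in PBS lungs and at 5.71, 5.61, 5.82 and 5.93 in OVA lungs. Ccnd1, cyclin D1, did not pass (0.11 ± 0.14). The other fall, Ccnd2 (−0.36 ± 0.11), lost its call with the replicate block (adjusted p = 0.0756, limma) and without PBS 1, PBS 2, PBS 4, OVA 1, OVA 2 or OVA 3 (adjusted p = 0.0689 to 0.116). The count of G1 risers was 3 without PBS 1, PBS 3 or OVA 2.

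Mitotic promoters are known for CCAAT boxes and for cell cycle homology regions built on TTTGAA. The first of these was in 22 of 28 windows found for 26 of the 29 mitosis risers, against 33.8% of all windows, and the second in 11 of 28, against 16%. Spc25 had the smallest p of the list and Mki67 is its best known marker. Their promoters are shown with CCAAT or its reverse complement in capitals (RefSeq, build GRCm38.p6, 250 bases before the start, gene's strand).
Spc25, chr2:69206214-69206463, minus strand: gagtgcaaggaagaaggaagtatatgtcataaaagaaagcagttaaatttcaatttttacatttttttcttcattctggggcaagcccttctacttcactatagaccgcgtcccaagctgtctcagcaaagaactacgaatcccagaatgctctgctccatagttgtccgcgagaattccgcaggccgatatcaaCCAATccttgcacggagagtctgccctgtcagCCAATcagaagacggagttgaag
Mki67, chr7:135716380-135716629, minus strand: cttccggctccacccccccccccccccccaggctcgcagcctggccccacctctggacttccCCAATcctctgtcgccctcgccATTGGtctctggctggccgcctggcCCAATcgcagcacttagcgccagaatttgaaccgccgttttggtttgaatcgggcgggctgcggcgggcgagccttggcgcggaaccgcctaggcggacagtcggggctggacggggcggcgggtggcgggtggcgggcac
Spc25 holds 2 matches and Mki67 3.

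The extracellular matrix changed in part: 12 of 38 tested collagen and matrix genes rose and 3 fell, with a median of 0.12. Col1a1 read 8.51, 8.62, 7.97 and 7.87 after PBS and 9.72, 10.41, 9.36 and 9.38 after OVA, and its partner in type I collagen, Col1a2, went from 7.88, 7.83, 8.42 and 8.50 after PBS to 9.52, 10.24, 9.73 and 9.56 after OVA. Groups were apart for both. Fn1, fibronectin, rose by 1.08 ± 0.14, Col5a2 by 1.10 ± 0.14 and Tgfbi, an adhesion protein induced by TGF-beta, by 1.91 ± 0.13. Sparc and Sparcl1 did not pass (0.08 ± 0.09 and −0.08 ± 0.10). The falls were Col12a1 (−1.12 ± 0.20), Lama4 (−0.36 ± 0.10) and Lamb1 (−0.33 ± 0.11). Without PBS 1, OVA 1, PBS 4 or OVA 3 only 1 matrix fall was left, and with the replicate block 1 as well. With arrays shifted to one median there were 6.

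Matrix proteases and their inhibitors gave 6 rises and 3 falls among 17 tested. Mmp19 stood at 4.87, 5.11, 4.90 and 4.51 in PBS lungs and at 7.96, 9.30, 8.26 and 6.95 in OVA lungs, and Adam8, a protease of leukocytes, read 6.33, 6.54, 5.89 and 6.21 after PBS and 9.64, 9.68, 8.66 and 7.61 after OVA. For both, OVA replicate 4 was the lowest OVA array and still above all PBS arrays. Mmp2, gelatinase A, rose by 1.35 ± 0.12. Without OVA 3 there were 5 falls. With all arrays they were Adamts5 (−0.87 ± 0.13), Mmp3, stromelysin (−0.87 ± 0.14), and Timp3, an inhibitor bound to matrix (−0.84 ± 0.15).

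Genes known from club cells, the secretory and detoxifying cells of small airways, were mostly lower, although several are also made by other cells. Of 20 tested club cell genes (33 listed) 13 fell and 3 rose (median −0.83). Aldh3a1, an aldehyde dehydrogenase, went from 7.97, 7.79, 7.42 and 7.16 after PBS to 5.91, 5.48, 5.77 and 5.41 after OVA. Gsta3, a glutathione transferase, stood at 10.65, 10.45, 10.34 and 10.36 in PBS lungs and at 8.41, 7.71, 9.11 and 9.08 in OVA lungs. Bpifa1, a secreted host defence protein of the upper airways, read 12.75, 12.34, 12.81 and 11.49 after PBS and 9.58, 10.49, 9.49 and 10.41 after OVA. For each the groups did not overlap. Scgb3a1, a secretoglobin, did not pass (0.21 ± 0.20), nor did Nupr1 (−0.02 ± 0.14). The rises were the glutathione transferase Gsto1 (0.89 ± 0.17), the collectin Sftpd (0.51 ± 0.10) and Chad (0.75 ± 0.20). Chad lost its call with the replicate block (adjusted p = 0.0641, limma) and without PBS 2 or OVA 2 (adjusted p = 0.0605 to 0.0658).

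Enzymes that clear foreign compounds and aldehydes fell as a broader set: 25 of 34 fell and 1 rose (median −0.84). The list shares members with the club cell list, Fmo1, Fmo2 and Gstm1 among them. Fmo1 and Fmo2, flavin monooxygenases abundant in lung, read 10.77, 10.34, 11.20 and 11.01 and 11.78, 11.59, 11.96 and 12.04 after PBS. After OVA they read 9.14, 8.86, 9.70 and 9.86 and 10.03, 9.61, 11.18 and 10.43. Gstm1 changed by −1.49 ± 0.14 and Cyp2e1 went from 7.66, 8.95, 7.42 and 7.02 after PBS to 5.60, 5.95, 4.03 and 5.06 after OVA. Mgst1, a membrane glutathione transferase, did not pass (−0.27 ± 0.11). The rise, Cyp1b1 (0.76 ± 0.21), lost its call with the replicate block (adjusted p = 0.0693, limma) and without PBS 2, PBS 3, PBS 4, OVA 1, OVA 3 or OVA 4 (adjusted p = 0.0534 to 0.0862). Pon1, a lipoprotein-associated esterase in this list, had the largest fall of all genes, from 10.03, 10.18, 9.84 and 9.58 after PBS to 6.48, 6.22, 7.28 and 7.28 after OVA.

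Fatty acid genes were lower too. Of 16 tested fatty acid oxidation genes 6 fell and 0 rose (median −0.31). Pdk4, which turns cells from glucose to fat and is induced by fasting and glucocorticoids, stood at 7.68, 7.39, 7.15 and 7.53 in PBS lungs and at 5.02, 5.05, 5.86 and 5.35 in OVA lungs. Fabp1, a fatty acid binding protein, read 7.17, 7.37, 5.60 and 6.02 after PBS and 3.22, 3.41, 4.24 and 3.76 after OVA. Acaa1b, a peroxisomal thiolase, fell to under background on all OVA arrays from 4.88 to 6.64, at least 4.18-fold. Hadhb and Etfa of mitochondrial oxidation did not pass (−0.30 ± 0.11 and −0.03 ± 0.11).

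Of 18 tested adipose genes 7 fell and 0 rose (median −0.38). Adipoq, adiponectin, a defining marker of fat cells, went from 6.68, 8.40, 6.55 and 5.67 after PBS to 5.11, 5.46, 3.28 and 4.18 after OVA, and Lep, leptin, was under background on all 8 arrays. Slc7a10, a neutral amino acid transporter of fat cells, stood at 6.65, 6.54, 6.62 and 6.76 in PBS lungs and at 4.43, 3.33, 5.24 and 5.07 in OVA lungs. What part fat tissue in the samples had in these falls was not tested. The sterol synthesis list had 0 rises and 0 falls among 14 tested (limma), with a median of 0.04. Glycolysis and hypoxia genes split, with 6 of 24 higher and 7 lower (4 without PBS 1 or OVA 1). Pfkp, phosphofructokinase, rose by 0.83 ± 0.08 and Pgk1 by 0.68 ± 0.08, while the oxygen sensor Egln1 changed by −0.53 ± 0.09.

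Endothelial genes fell: 24 of 37 tested members fell and 1 rose (median −0.63). Ptprb, the endothelial phosphatase VE-PTP, read 11.70, 11.61, 12.23 and 12.18 after PBS and 10.58, 10.50, 11.19 and 11.36 after OVA. Tek, the angiopoietin receptor, went from 11.01, 10.80, 11.57 and 11.47 after PBS to 9.71, 9.54, 10.51 and 10.58 after OVA. Flt1, a VEGF receptor, changed by −0.96 ± 0.10 and Ramp2, of the adrenomedullin receptor, by −0.99 ± 0.13. Vwf, the clotting factor carrier of endothelium, and Icam1, an adhesion molecule, did not pass (−0.05 ± 0.16 and 0.11 ± 0.10), and the rise was Gja4, an arterial gap junction protein (1.11 ± 0.18). Within replicates 1 and 2, 24 members fell, and within replicates 3 and 4, 9 fell. Of all tested genes 8.95% and 6.05% fell in these comparisons (limma).

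Stromal genes fell more often than they rose. Of 21 tested fibroblast genes 11 fell and 4 rose (median −0.48). Igfbp3, which binds insulin-like growth factors, stood at 8.43, 8.33, 9.10 and 9.47 in PBS lungs and at 5.63, 5.57, 7.70 and 7.70 in OVA lungs. Limch1 changed by −0.85 ± 0.09 and Tcf21, a transcription factor of lung fibroblasts, by −0.88 ± 0.15. The rises were Thy1, which T cells also make (1.76 ± 0.27), Col14a1 (0.73 ± 0.14), Mfap4 (1.10 ± 0.30) and Mfap5 (0.64 ± 0.15). Mfap4 lost its call without PBS 1, PBS 2, PBS 3, OVA 2 or OVA 3 (adjusted p = 0.0528 to 0.0867) and Mfap5 without PBS 1, PBS 2, OVA 1 or OVA 2 (adjusted p = 0.0505 to 0.0558). Of 24 tested smooth muscle and pericyte genes 6 fell and 0 rose; without OVA 1 there were 3 falls, and with arrays shifted to one median 10. Itga8, an integrin of myofibroblasts, read 9.42, 9.41, 10.08 and 10.20 after PBS and 8.24, 7.65, 9.16 and 8.73 after OVA. Acta2, smooth muscle actin, did not pass (0.13 ± 0.16), nor did Postn, periostin (−0.29 ± 0.10).

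Heart muscle transcripts were present in all samples and most of those tested were lower after OVA. Of 24 tested cardiac genes 17 fell and 1 rose (median −1.36). The rise lost its call with the replicate block. Within replicates 1 and 2, 16 members fell (median −1.71), and within replicates 3 and 4, 4 fell (median −0.94). Of all tested genes 8.95% and 6.05% fell in these comparisons (limma). Without OVA 1 there were 11 falls. Myl4, an atrial myosin light chain, went from 9.31, 9.26, 9.32 and 8.64 after PBS to 7.35, 7.64, 6.87 and 7.81 after OVA. Tnnt2, cardiac troponin T, stood at 9.32, 9.50, 9.84 and 9.33 in PBS lungs and at 7.77, 7.88, 8.02 and 8.95 in OVA lungs, so OVA replicate 4 was the closest to the PBS arrays. Myoz2 changed by −2.39 ± 0.26 and Hrc, a calcium-binding protein of the sarcoplasmic reticulum, fell to under background on all OVA arrays, at least 1.82-fold. Smpx, of heart and skeletal muscle, read 7.57, 6.45, 6.42 and 6.47 after PBS and 4.88, 4.02, 4.10 and 5.50 after OVA, highest on PBS 1, where Acta1 was high. Atp2a2, a calcium pump that lung also makes, did not pass (0.18 ± 0.09). The labelled heart markers had a mean of 8.45 to 9.02 over the PBS arrays and 7.16 to 8.22 over the OVA arrays. How much heart tissue each lung sample held was not tested.

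Other tissues and rare cells gave few tested members. Of 4 tested skeletal muscle genes 1 fell, Pgam2 (−1.39 ± 0.41), a call lost without PBS 2, PBS 3, OVA 1, OVA 2 or OVA 4 (adjusted p = 0.0531 to 0.106). Among 7 erythroid and platelet genes 2 fell, Bpgm, which sets the oxygen affinity of haemoglobin (−1.45 ± 0.28), and Slc4a1 (−2.21 ± 0.56, lost without PBS 1, OVA 1 or OVA 2 (adjusted p = 0.0540 to 0.0639)). Without OVA 4 that list had 4 falls. Kit, the stem cell factor receptor, was the 1 tested mast cell and basophil marker, and went from 7.74, 7.51, 8.33 and 8.51 after PBS to 6.95, 6.74, 7.60 and 7.96 after OVA (−0.71 ± 0.12). The mast cell proteases Mcpt4 and Tpsb2 were under background on all 8 arrays, and which cells gave the Kit signal was not tested. Of 5 squamous, mesothelial and neural genes Upk3b, of mesothelium, and Mbp, of myelin, passed with changes of −1.96 ± 0.50 and 0.39 ± 0.11. Upk3b lost its call without PBS 1, PBS 2, PBS 4, OVA 1 or OVA 2 (adjusted p = 0.0536 to 0.0645) and Mbp without PBS 2, PBS 3, PBS 4, OVA 1, OVA 3 or OVA 4 (adjusted p = 0.0620 to 0.0810).

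Alveolar epithelium changed little by its median (−0.09), with 4 of 25 tested genes higher and 8 lower. Sftpd, a collectin of surfactant, went from 13.10, 12.99, 12.54 and 12.54 after PBS to 13.41, 13.33, 13.23 and 13.26 after OVA. Rtkn2, of alveolar type 1 cells, stood at 9.12, 9.33, 9.42 and 9.58 in PBS lungs and at 8.13, 7.99, 8.57 and 8.63 in OVA lungs. Sftpa1 did not pass (0.08 ± 0.10). The other rises were Ctsh (0.74 ± 0.10), Napsa (0.34 ± 0.08), both proteases that process surfactant proteins, and Egfl6 (0.55 ± 0.13). Without PBS 1, PBS 2 or OVA 1 there were 5 falls. Of 17 tested ciliated cell genes 3 fell and 0 rose: Tppp3 read 11.03, 10.81, 10.37 and 10.10 after PBS and 9.49, 9.27, 9.44 and 9.69 after OVA, and the other falls were Dnah11 (−0.70 ± 0.17) and Tekt2 (−0.57 ± 0.16). Dnah11 lost its call without PBS 1, PBS 4 or OVA 2 (adjusted p = 0.0527 to 0.0611) and Tekt2 without PBS 1, PBS 2, PBS 3, OVA 1, OVA 2 or OVA 4 (adjusted p = 0.0568 to 0.0990). Junction genes gave 3 rises and 6 falls among 21, with 3 falls without OVA 1, PBS 3 or PBS 4 and 0 rises without PBS 2 or OVA 2. Tjp1, the scaffold ZO-1, changed by −0.61 ± 0.08 and Pard3, of cell polarity, by −0.93 ± 0.14.

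Developmental signalling fell more than it rose: 16 of 40 tested genes of the TGF-beta, BMP, Wnt and Notch pathways fell and 4 rose (median −0.39). Dll1, a Notch ligand, went from 9.19, 9.15, 9.36 and 9.37 after PBS to 7.82, 7.61, 8.02 and 8.0 after OVA (−1.40 ± 0.09). Fzd1, a Wnt receptor, changed by −0.81 ± 0.11. The rises were Tgfb1 (0.78 ± 0.08), its receptor Tgfbr1 (0.69 ± 0.14), Id2, a target of BMP signals (0.91 ± 0.12), and Fstl1 (0.63 ± 0.14). For Tgfb1 the levels of replicates 1 and 2 exceeded those of 3 and 4 in both groups, with 7.38, 7.38, 6.42 and 6.35 after PBS and 8.09, 8.15, 7.21 and 7.21 after OVA. Among 15 integrins 6 rose and 1 fell, Itga4 of lymphocytes by 0.94 ± 0.12, while Itgb1 did not pass (−0.0 ± 0.10).

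Stress and hormone-responsive genes fell more often than they rose. Of 20 tested glucocorticoid and fasting genes 10 fell and 1 rose (median −0.58), the rise being Lcn2. Within replicates 1 and 2, 10 fell and 1 rose, and within replicates 3 and 4, 5 fell and 4 rose. Over all tested genes 8.95% fell and 9.22% rose in the first pair, and 6.05% fell and 9.39% rose in the second (limma). Tsc22d3, the glucocorticoid-induced leucine zipper, stood at 11.68, 11.50, 11.27 and 11.39 in PBS lungs and at 10.47, 10.15, 10.53 and 9.47 in OVA lungs. Cebpd, a transcription factor induced by the hormone and by cytokines, read 11.01, 9.91, 10.71 and 10.69 after PBS and 9.38, 9.07, 8.97 and 9.30 after OVA. Sgk1, a kinase induced by the same hormone, did not pass (0.10 ± 0.13).

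Of 23 tested immediate early genes 8 fell and 2 rose (median −0.67). Within replicates 1 and 2, 3 fell and 2 rose, and within replicates 3 and 4, 9 fell and 1 rose. The shares of all tested genes in each pair are given above. Jun went from 11.31, 11.23, 11.69 and 11.61 after PBS to 10.72, 10.73, 10.39 and 10.63 after OVA, and Klf4 changed by −1.32 ± 0.21. Rgs1, which dampens chemokine receptors in leukocytes, stood at 5.14, 4.15, 4.18 and 3.58 in PBS lungs and at 8.90, 8.78, 7.75 and 6.22 in OVA lungs. Egr2, the other rise (1.43 ± 0.44), lost its call with the replicate block (adjusted p = 0.0858, limma) and without PBS 1, PBS 2, PBS 4, OVA 1, OVA 2 or OVA 3 (adjusted p = 0.0647 to 0.118). Without PBS 1 there were 4 falls, and without PBS 4, OVA 3 or OVA 4 there were 5. Of 17 tested heat shock genes 6 fell and 1, Hspa4, rose (0.49 ± 0.12), a call lost without PBS 1, PBS 2 or OVA 2 (adjusted p = 0.0520 to 0.0639). Within replicates 1 and 2, 2 heat shock genes fell, and within replicates 3 and 4, 8 fell. Hspb1, a small heat shock protein, read 11.24, 11.72, 10.58 and 10.56 after PBS and 10.37, 10.56, 9.74 and 9.43 after OVA, and Hsp90aa1 changed by −0.52 ± 0.11.

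Clock genes fell in 9 of 19 tested members and rose in 2. Cry1, a repressor of the clock, went from 8.77, 8.58, 8.71 and 8.68 after PBS to 7.94, 7.74, 7.21 and 7.32 after OVA. Bhlhe40, a clock-linked repressor also induced in activated leukocytes, stood at 8.85, 8.02, 8.31 and 8.16 in PBS lungs and at 10.06, 9.84, 9.72 and 9.72 in OVA lungs. Arntl, the activator BMAL1, read 6.89, 7.16, 7.83 and 7.55 after PBS and 6.33, 6.47, 5.60 and 5.72 after OVA, and Nr1d2, a repressor of Arntl, went from 7.92, 8.32, 8.69 and 8.27 after PBS to 8.24, 8.47, 11.09 and 10.88 after OVA. Both the lowest Arntl and the highest Nr1d2 values of the 8 arrays were on OVA replicates 3 and 4. Nr1d2 lost its call with the replicate block (adjusted p = 0.0900, limma) and without PBS 1, PBS 3, PBS 4, OVA 2, OVA 3 or OVA 4 (adjusted p = 0.0584 to 0.111), and its other probe set missed the threshold.

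The housekeeping machinery moved little. Endoplasmic reticulum genes had 10 rises and 0 falls among 40 (median 0.15), with Edem2 at 0.74 ± 0.09 and Sdf2l1 at 1.38 ± 0.18. Without PBS 1, PBS 2 or PBS 4 there were 6 rises. Hspa5, the main chaperone of that compartment, did not pass (0.11 ± 0.11). Ribosomal protein genes had 8 rises among 31 (median 0.25), but 3 with the replicate block, 0 without the term for the replicate split (limma, also 0 at an unadjusted p of 0.05), and 3 to 5 with each of the 8 arrays left out in turn. Respiratory chain subunits had 11 among 50, 5 with the block, 0 without the split term (1 at an unadjusted p of 0.05), and 5 or 6 without PBS 2, PBS 3, PBS 4, OVA 2 or OVA 4. Rps26, a ribosomal protein, stood at 11.67, 11.71, 10.52 and 10.57 in PBS lungs and at 12.23, 12.16, 11.10 and 11.08 in OVA lungs, so replicates 1 and 2 exceeded 3 and 4 by more than OVA exceeded PBS.

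**Figure D3:**
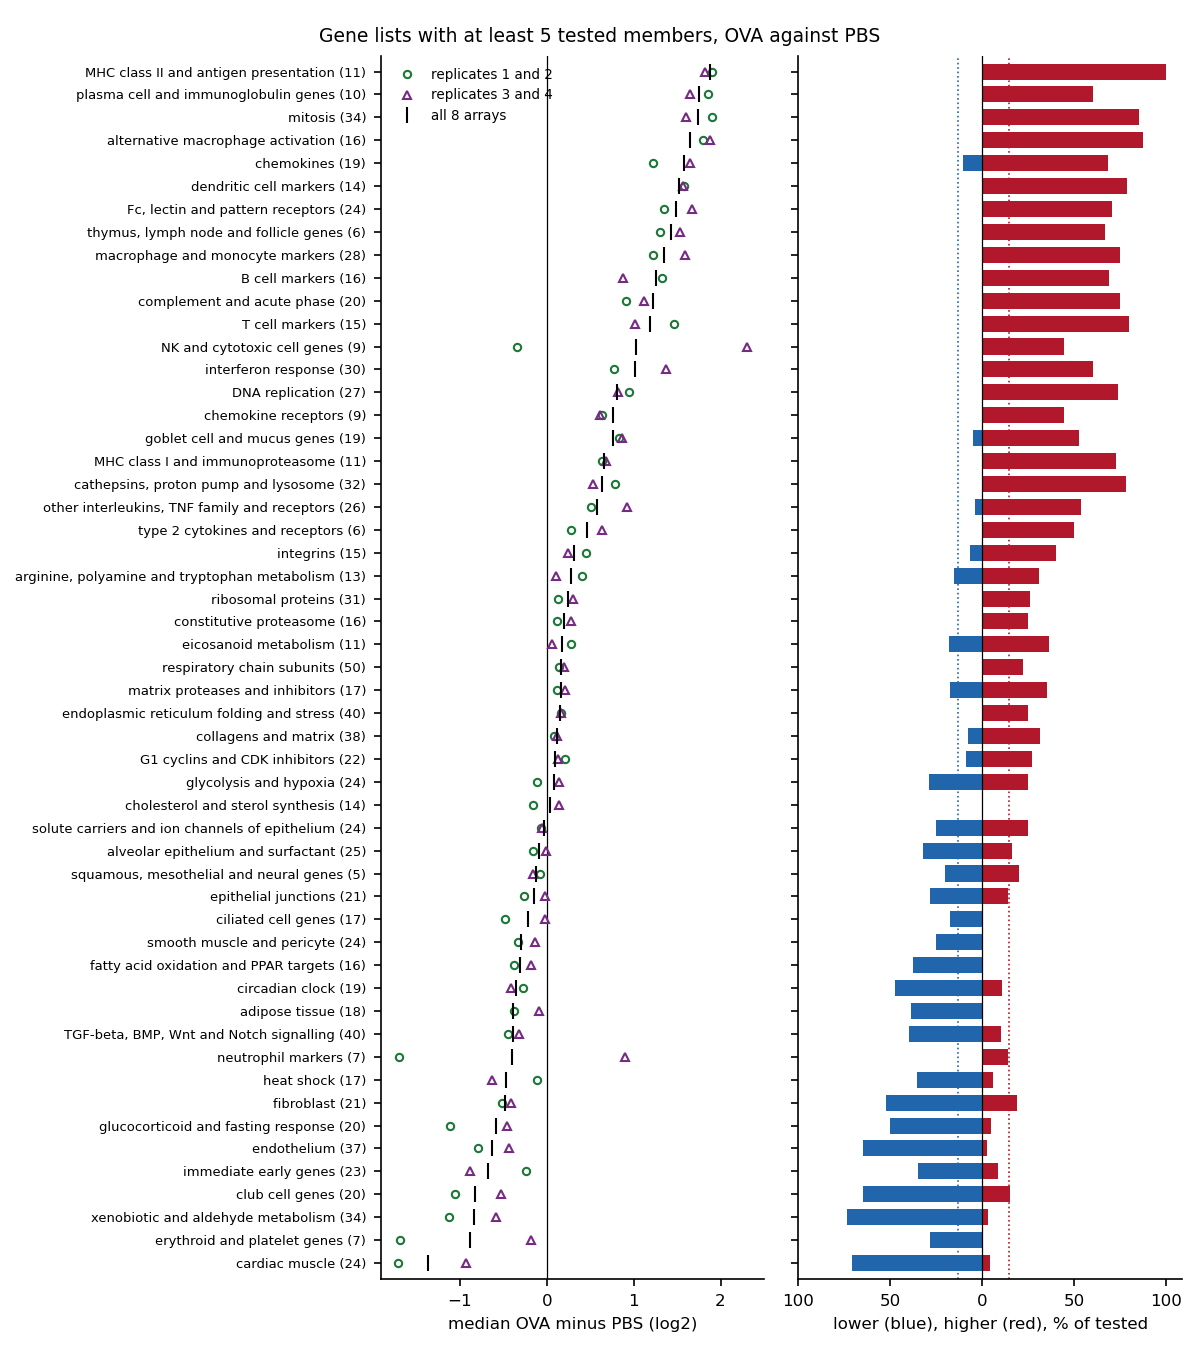
For each list with at least 5 tested members (number in brackets), the median OVA minus PBS in log2 units over all 8 arrays and within each pair of replicates (left panel), and the percent of tested members that rose (red) and fell (blue), with dotted lines at 14.8% and 13% for all tested genes (right panel). All 11 tested MHC class II genes and 29 of 34 mitosis genes rose, and 25 of 34 xenobiotic metabolism genes fell.

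The replicate pairs were then set against each other, since replicates 1 and 2 and replicates 3 and 4 each hold both exposures. All 1958 called genes changed in the same direction within both pairs. The call itself favours this, since it rests on the mean of both pairs and on a spread that includes their disagreement. A test of the difference between the responses passed for 7 of 7047 genes (0.0993%, limma, Benjamini-Hochberg), of which 3 (0.0426%) were more positive in replicates 3 and 4 and 4 (0.0568%) in replicates 1 and 2. At an unadjusted p under 0.05 there were 763. Without PBS replicate 1 the count was 0 (611 at an unadjusted p under 0.05), and without OVA replicate 3 it was 24.

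**Figure D4:**
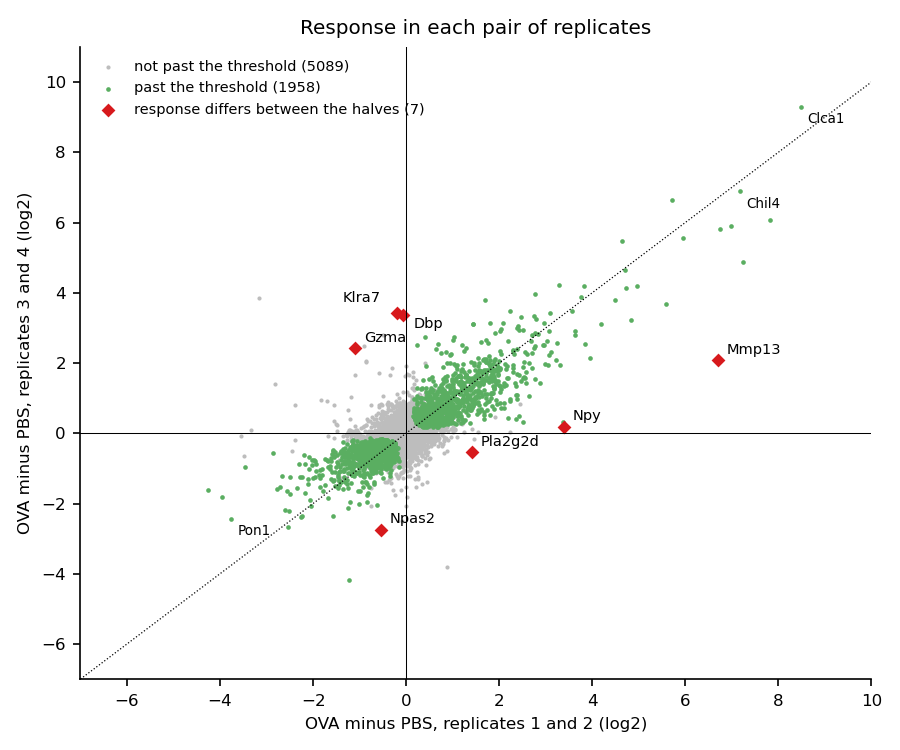
Change after OVA (log2) within replicates 1 and 2 (x axis) against that within replicates 3 and 4 (y axis) for the tested genes, with the 7 genes whose responses differed named. Most genes lie along the diagonal, and Gzma, Dbp and Klra7 lie above it.

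Gzma, a granzyme of NK and cytotoxic T cells, read 9.34, 9.18, 7.64 and 7.52 after PBS and 8.31, 8.03, 9.86 and 10.14 after OVA. It was lower after OVA in replicates 1 and 2 (−1.09) and higher in replicates 3 and 4 (2.42), a difference in response of 3.51 ± 0.23 (adjusted p = 0.00704, limma). It passed with each array left out except PBS 1 (adjusted p = 0.0511). Klra7, an NK cell lectin receptor, read 4.48, 4.75, 3.07 and 2.76 after PBS and 4.67, 4.17, 6.68 and 6.02 after OVA. Each of the 6 genes besides Gzma lost the call in at least 4 of the 8 fits with 1 array left out. Over the NK and cytotoxic list 1 of 9 tested members rose and 1 fell within replicates 1 and 2, and 7 rose within replicates 3 and 4. Over all tested genes 9.22% rose and 8.95% fell in the first pair and 9.39% rose in the second. The difference between pairs passed for Gzma alone of the 9, while 5 had an unadjusted p under 0.05 (limma), against 763 of all 7047 tested genes. The medians were −0.34 and 2.30, and over all 8 arrays 4 rose, 2 without OVA 1 or OVA 4.

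Of 19 tested clock genes 2 passed the test of the difference between pairs. An unadjusted p under 0.05 was met by 10 of them (limma), against 763 of all 7047 tested genes. Such shares were not particular to the clock list. They were 10 of 19 for chemokines, 10 of 20 for glucocorticoid and fasting genes and 16 of 34 for xenobiotic genes. In each of these other lists 0 passed after adjustment. Dbp, a transcription factor with a strong daily rhythm, stood at 4.36, 4.40, 3.78 and 3.26 in PBS lungs and at 4.29, 4.34, 6.97 and 6.81 in OVA lungs, so only OVA replicates 3 and 4 were raised (3.44 ± 0.25, adjusted p = 0.00917, limma). Npas2, a relative of Clock that runs opposite to Dbp in many tissues, read 6.54, 6.76, 6.64 and 6.91 after PBS and 5.98, 6.23, 3.97 and 4.10 after OVA, lowest on the same 2 arrays. With probe sets averaged its adjusted p was 0.297. With 1 array left out Dbp passed in 4 of 8 fits and Npas2 in 1. Nr1d1, another repressor of the clock, named after its values were seen, was under the filter: it read 3.18, 3.63, 2.64 and 3.01 after PBS and 2.39, 3.06, 6.20 and 6.12 after OVA (adjusted p = 0.0349, limma, without the filter).

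The 4 genes more positive in replicates 1 and 2 included Mmp13, a collagenase, at 2.62, 2.60, 3.42 and 3.70 after PBS and 8.80, 9.83, 5.69 and 5.58 after OVA. It was above every PBS array on all OVA arrays, but by 6.71 in the first pair and 2.07 in the second. Npy, a neuropeptide, read 3.98, 4.28, 4.24 and 4.21 after PBS and 7.27, 7.79, 4.61 and 4.22 after OVA. Pla2g2d, a secreted phospholipase of dendritic cells, stood at 3.69, 3.64, 4.06 and 4.36 in PBS lungs and at 5.14, 5.05, 3.61 and 3.74 in OVA lungs.

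**Figure D5:**
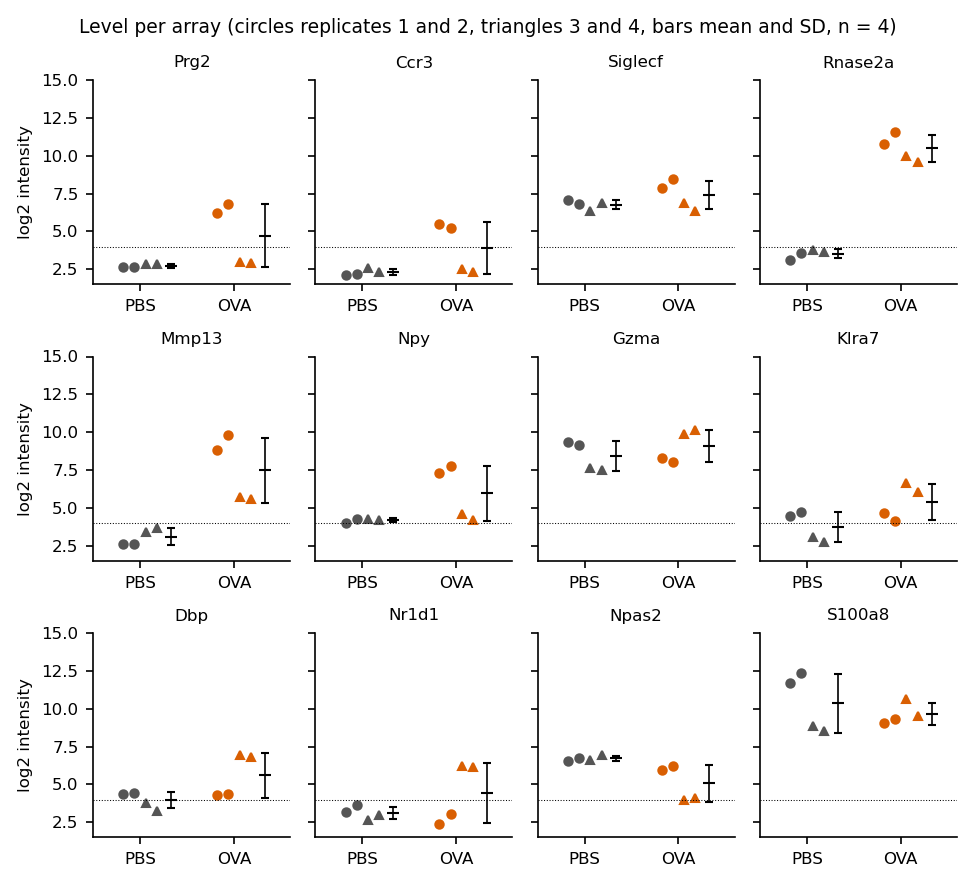
Log2 intensity on each array, by exposure and replicate. Mmp13, Npy, Gzma, Klra7, Dbp and Npas2 passed the test of the difference between replicate pairs, and Pla2g2d, which also passed, is not shown. Prg2, Ccr3 and Nr1d1 passed only without the filter on low values. Siglecf, Rnase2a and S100a8 did not pass. Dbp is raised on OVA replicates 3 and 4 only, and Npy on OVA replicates 1 and 2 only.

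Without the filter on low values 17 genes passed, and among them were defining eosinophil genes. Prg2, the major basic protein of eosinophil granules, read 2.62, 2.63, 2.85 and 2.82 after PBS and 6.20, 6.84, 2.98 and 2.89 after OVA (adjusted p = 0.0161, limma). Ccr3, the eotaxin receptor of eosinophils, read 2.15, 2.18, 2.61 and 2.31 after PBS and 5.50, 5.25, 2.53 and 2.29 after OVA (adjusted p = 0.00962). Both were above background on OVA replicates 1 and 2 and under it on the other 6 arrays. The filter had left them out because only 2 arrays exceeded log2 4. Of the 4 eosinophil markers that were tested, 2 rose, Rnase2a and Il5ra, and 1 without PBS 1, OVA 1, OVA 2 or PBS 3. Siglecf, a receptor shared by eosinophils and alveolar macrophages, read 7.06, 6.79, 6.32 and 6.89 after PBS and 7.88, 8.46, 6.90 and 6.37 after OVA and did not pass. Rnase2a was high on all 4 OVA arrays, also where Prg2 and Ccr3 were at background. Mast cell proteases Mcpt4 and Tpsb2 were under background on all 8 arrays.

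No neutrophil marker passed the test of the difference between pairs (0 of 7 tested, limma). At an unadjusted p under 0.05 there were 7, against 763 of all 7047 tested genes. Among the neutrophil markers 1 rose and 5 fell within replicates 1 and 2. Within replicates 3 and 4, 3 rose and 0 fell, and the medians were −1.71 and 0.91. Csf3r, the neutrophil growth factor receptor, read 8.47, 9.06, 7.06 and 6.39 after PBS and 7.08, 7.04, 7.73 and 7.54 after OVA. PBS replicates 1 and 2 were its 2 highest arrays, and the same arrays were highest for red cell Slc4a1 above. The difference between pairs had an adjusted p of 0.0843 for Csf3r and 0.0686 for S100a8 (limma). The part of blood in these values was not tested.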

How the data were processed

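RNA was isolated with TRIZOL, per the labels' protocols. Values were deposited as linear intensity (2.32 to 35181), made by the authors with GCRMA, per the submitters' processing notes (version not given in the sources). GCRMA subtracts background and equalises the arrays' distributions before it summarises the probes of a set, so differences near background are compressed. Log2 was taken of these intensities and nothing else was scaled. Precision is limited by having 4 arrays in each group.

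Labels did not stand beside their own values, so 14300 of 45101 labels in 3 runs were moved to values 64 rows above, 47 rows below and 16168 rows below. The stated rule gave the second shift as above; 47 rows the other way lowered the median correlation between probe sets of a gene within that run from 0.618 to 0.0272. Over all runs 1696 pairs had a median of 0.634, against 0.115 as deposited. The remaining labels were not used here. Symbols came from the platform annotation (13146 labels with 1 symbol). A gene had to exceed log2 4 on at least 4 of the 8 arrays, and its brightest probe set was kept; of 670 other probe sets of called genes 619 had the same sign and 2 passed with the opposite sign.

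The fit (limma 3.58.1, R 4.3.3; 5 residual degrees of freedom) held exposure and a term for replicates 1 and 2 against 3 and 4, with Benjamini-Hochberg adjustment at 0.05, and was tested on simulated data. Comparisons within a pair of replicates came from a fit over all 8 arrays, with the spread pooled over both pairs. Same-numbered arrays deviated together from their group means (correlations of 0.649, 0.490, 0.524 and 0.444). Arrays of different number in the same pair of replicates did so to a like degree (0.444 to 0.532). These values show the replicate split and cannot tell whether equal numbers pair samples. The main fit did not pair by number, and the replicate block was an alternative. Genes named include the 12 largest rises and falls among called genes whose groups did not overlap, so their separation was set by that choice. Also named are up to 5 members per list with the smallest p and 2 of the brightest that did not pass. Genes switched on, genes differing between replicate pairs, all members of small counts, and the 8 smallest p complete the set. Of 359 such genes 252 passed, and 212 of these did so with each array left out. Sensitivity used other scalings, filters, probe set rules, arrays and fits. Lists (57, with 1993 entries, 1101 of them tested) and members were chosen with earlier results of these data known. Lists share members, and the tested entries are 983 distinct genes. Prg2, Ccr3, Nr1d1, Acta1 and Slc4a1 were added after their values were seen.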

Additional observations from a re-analysis of the deposited data

Results flagged for a closer look

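The response to OVA differed between replicates 1 and 2 and replicates 3 and 4 for 7 genes by a test of the difference itself (limma). The response in replicates 3 and 4 minus that in 1 and 2 was 3.51 log2 units for Gzma, 3.64 for Klra7 and 3.44 for Dbp. It was −4.63 for Mmp13, −3.21 for Npy, −2.20 for Npas2 and −1.96 for Pla2g2d.

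Some single arrays lay far from the other 3 of their group, by a criterion that chance meets in about 1 in 20 groups. It was applied to both groups of 53 lists and of many named genes, so flags like these can arise by chance. For Jchain the lowest OVA array was replicate 4 at 8.40 (log2 intensity). For Smpx the highest PBS array was replicate 1 at 7.57. For Cxcl9 the highest PBS array was replicate 2 at 2.84, under background. The mean level of the B cell markers was lowest on OVA replicate 3 at 6.22, and that of the thymus, lymph node and follicle genes was lowest on the same array at 6.24.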

How the results depend on the processing

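No named gene that was called changed sign under any alternative run, but of 252 such genes 73 missed the threshold without the term for the replicate split, 65 over all 16 arrays without it, 20 with the replicate block and 18 to 29 with 1 array left out. Without the split term 40 of 79 list counts fell by over 1.5 times. The count of called genes (1958; 1045 higher, 913 lower) was 910, 533 and 377 without the term for the replicate split, and 1121, 630 and 491 over all 16 arrays without it. Within replicates 1 and 2 it was 1281, with 650 higher, and within replicates 3 and 4 it was 1088, 662 and 426. With 1 array left out the count was 1366 to 1845, the rises 767 to 982 and the falls 599 to 907, lowest without PBS 1. The fit with the replicate number as a block called 1607, 880 and 727. Shifting arrays to one median moved the median change from 0.00 to −0.08 and the share of rises among calls from 53.4% to 40.5% (862 higher, 1265 lower). List medians turned sign under at least 1 alternative in 7 of 53 lists with 5 or more tested members. The sterol synthesis median (0.04) was −0.16 within replicates 1 and 2, −0.03 with the filter at log2 6, −0.04 with arrays at one median, −0.03 without PBS 4 and −0.09 without OVA 4. The others were chemokine receptors (−0.05 without the filter), matrix proteases (−0.13 with the filter at log2 6), glycolysis (−0.11 within replicates 1 and 2), the squamous, mesothelial and neural list (0.0059 without OVA 4), and the NK and neutrophil lists, by pair. Genes whose response differed between the replicate pairs numbered 17 without the filter, 4 with values under log2 4 set to 4, 15 with 16 added before the log, 33 with a trended robust fit, and 0 to 24 with 1 array left out.

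Of 1993 list entries 892 were not tested, being under the background filter or without a usable label. With 4 arrays per group the median SE was 0.13 log2 units, and every gene name rests on the realignment.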
